A study of Mus musculus with 8 samples.

Results

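The genes described here serve antigen presentation by MHC class I, the route by which nearly every nucleated cell displays peptides from its own proteins to CD8 T cells. The set was chosen by name and holds 8 of the 23284 genes in the expression tables: B2m, H2-K1, H2-D1, H2-T23, Tap1, Tap2, Tapbp and Nlrc5. RNA sequencing was available for 4 groups of mouse CD4 T cells with 2 libraries each, all from DO11.10 Tg mice, which carry a T cell receptor transgene specific for an ovalbumin peptide. Naïve CD4 T cells were sorted from spleen as CD44low CD62Lhi CD4+ cells. The effector cells were cultured for 6 days with ovalbumin peptide and irradiated, T cell-depleted splenocytes. Effector Th1 cells received IL-2 (30 U/ml), IL-12 (100 U/ml) and anti-IL-4 (1 µg/ml). Effector Th2 cells received IL-2 (30 U/ml), IL-4 (100 U/ml) and anti-IFNγ (10 µg/ml). Effector Th17 cells were given IL-23, IL-6 and IL-1β (10 ng/ml each) with anti-IL-4 and anti-IFNγ (10 µg/ml each). Antibody against IFNγ was thus present in the Th2 and Th17 cultures and not in the Th1 culture, and naïve cells were not cultured, so that culture, cytokines and antibody cannot be told apart in the comparisons. The sources do not say whether the 2 libraries of a group came from separate cultures or mice, and p-values measure only the spread between these libraries, which may be technical.

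A class I molecule consists of a heavy chain, a noncovalently bound light chain and a peptide. Peptides made by the proteasome, or by its interferon-inducible form, the immunoproteasome, are pumped into the endoplasmic reticulum by the TAP transporter and loaded onto heavy chains held nearby by tapasin. The heavy chain, light chain and transporter genes respond to interferons, in part through IRF1, and in lymphocytes they are driven by NLRC5, a transactivator that acts through a composite promoter element, the SXY module, bound by RFX, CREB and NF-Y factors.

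The promoters of the class I genes are shown first because the elements that interferon, NF-κB and NF-Y factors are known to use lie within them. The 250 bases before the start of each gene were taken from RefSeq (GRCm38.p6, the mm10 assembly) and were found for 6 of the 8 genes, those other than Tap2 and Nlrc5. The letters searched, on both strands, were an interferon-stimulated response element core (GAAA, any 2 bases, GAAA), a GAS element (TTCNNNGAA), the class I κB site (GGGGATT followed by CCC), the cyclic AMP response element (TGACGTCA) and the Y box core that NF-Y binds (ATTGG). The shorter TGACG, which lies inside the cyclic AMP response element, was added after the sequences were seen. Matches are in capitals in the sequences, which run 5′ to 3′ on the strand of the gene.

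B2m, chr2:122147437-122147686, plus strand: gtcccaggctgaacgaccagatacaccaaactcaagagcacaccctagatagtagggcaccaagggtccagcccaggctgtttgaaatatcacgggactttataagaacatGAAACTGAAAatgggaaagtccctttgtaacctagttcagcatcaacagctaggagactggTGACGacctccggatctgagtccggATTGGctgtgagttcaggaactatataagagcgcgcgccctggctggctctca
H2-K1, chr17:34000334-34000583, minus strand: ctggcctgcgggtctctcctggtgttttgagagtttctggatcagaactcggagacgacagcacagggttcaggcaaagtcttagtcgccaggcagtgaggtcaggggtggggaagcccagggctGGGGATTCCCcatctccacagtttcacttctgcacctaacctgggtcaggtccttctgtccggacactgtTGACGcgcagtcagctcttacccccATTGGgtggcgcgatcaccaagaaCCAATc
H2-D1, chr17:35262844-35263093, plus strand: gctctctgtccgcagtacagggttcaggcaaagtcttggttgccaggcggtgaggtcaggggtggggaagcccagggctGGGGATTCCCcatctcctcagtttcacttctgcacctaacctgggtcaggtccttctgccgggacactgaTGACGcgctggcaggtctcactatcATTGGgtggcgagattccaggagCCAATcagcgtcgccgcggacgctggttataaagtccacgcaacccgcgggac
H2-T23, chr17:36032702-36032951, minus strand: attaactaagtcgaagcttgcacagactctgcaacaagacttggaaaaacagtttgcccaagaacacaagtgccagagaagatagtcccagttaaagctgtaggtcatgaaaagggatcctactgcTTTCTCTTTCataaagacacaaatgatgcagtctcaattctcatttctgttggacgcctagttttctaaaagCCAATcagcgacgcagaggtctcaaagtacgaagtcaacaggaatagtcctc
Tap1, chr17:34187306-34187555, plus strand: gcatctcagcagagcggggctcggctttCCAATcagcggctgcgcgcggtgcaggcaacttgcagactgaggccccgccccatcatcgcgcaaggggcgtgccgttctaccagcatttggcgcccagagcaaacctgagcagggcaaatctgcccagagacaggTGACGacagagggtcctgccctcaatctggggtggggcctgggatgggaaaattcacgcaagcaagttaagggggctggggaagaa

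The heavy chain promoters of H2-K1 and H2-D1 were near copies of each other, with 172 identical bases in 192 aligned columns (89.6%) and a longest shared run of 47 bases that includes the κB letters. That κB site was present in both of them, at -125 to -116 and at -171 to -162 from the start, and in 0.0814% of the 27025 promoters in the table. It was searched as a site of class I genes and lies in the run that both share, so the 2 matches are not independent. For H2-K1 2 starts were listed, and its positions are counted from the one that the expression data also give. The exact letters of the interferon response core were present in B2m (-139 to -130) and H2-T23 (-124 to -115), and in 3.04% of all promoters. Variants of these letters were not searched. The lack of a match, as in H2-K1 and H2-D1, thus does not show that an interferon element is absent. ATTGG was found in all 6 promoters and in 34.5% of all, and TGACG was found in B2m, H2-K1, H2-D1 and Tap1 and in 17.9% of all. None of the 6 held the GAS letters (7.18% of all promoters) or the full cyclic AMP response element (1.62% of all). The promoter of Psmb9, which encodes an immunoproteasome subunit, overlaps that of Tap1 on the opposite strand, so that the 2 genes share the TGACG and ATTGG matches shown for Tap1. For Tapbp the ATTGG matches lay at -248 to -244 and -165 to -161. A match of letters is a description and not a measurement of binding.

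In mm10, 6 of the 8 genes lie on chromosome 17, in an interval of 2113 kb of the mouse MHC. In map order they are Tapbp (33919478 to 33929290), H2-K1 (33996012 to 34000333), Tap1 (34187556 to 34197225), Tap2 (34204479 to 34216321), H2-D1 (35263094 to 35267497) and H2-T23 (36029977 to 36032701). B2m lies on chromosome 2 (122147687 to 122153082) and Nlrc5 on chromosome 8 (94472763 to 94527272). These are whole gene spans, exons and introns together, as given by the tables. The reads were aligned to mm10, which is a C57BL/6J genome with the H-2b haplotype, while DO11.10 mice are on the BALB/c background, which carries H-2d. How many reads of the polymorphic heavy chains were lost or moved between genes by this was not tested. Of the 50-base words in annotated transcripts, 9.63% were shared with another gene for H2-K1, 12.8% for H2-D1 and 14.5% for H2-T23, against 0% for B2m and 0.339% for Nlrc5. Tapbp shared 23.2% of its words, most of them with an antisense transcript across its exons (20.3%), and Tap2 shared 11.6%, most with an antisense transcript (9.22%). Whether strand was used in quantification is not given in the sources used here, so sense and antisense reads cannot be told apart for these genes.

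Expression was given as FPKM (fragments scaled to transcript length and to the number of mapped fragments), summed per gene symbol. The depth implied by the tables was 14463466 to 21058286 fragments per library, and the smallest number of fragments behind a value of the 8 genes was 553, for Nlrc5 in a Th2 library. Differences were fitted with limma on log2(FPKM + 1) over the 11198 genes whose FPKM averaged 1 or more, a filter that all 8 genes passed, and are called at a Benjamini-Hochberg adjusted p under 0.05. The labelled cell types were present in the data. Summed FPKM of 4 CD4 T cell genes was 880 to 1337 in every library. The summed Th1 markers were at 907 to 1048 in Th1 and at most 144 elsewhere. Ifng (mean 708 in Th1 and 1.31 in Th17) and Tbx21 (47.9 and 1.64) set Th1 apart from Th17. Il12rb2 was at 213 and 119, and Cxcr3, at 8.68 and 11.4, was not called different between them. Th2 markers were at 384 to 417 in Th2 and at most 26.4 elsewhere, and Th17 markers were at 1395 to 1425 in Th17 and at most 3.32 elsewhere. Because class I genes are expressed by most cells, markers of other cells were examined. The summed FPKM of 5 B cell genes was 6.58 to 8.58 in naïve, 2.32 to 3.13 in Th1, 6.93 to 9.72 in Th2 and 11.1 to 12.1 in Th17 cells, and that of 5 macrophage genes was 12.2 to 12.8, 7.94 to 8.73, 20.8 to 27.8 and, in Th17 cells, at most 17.2. The 6 dendritic cell genes summed to at most 3.93 in any library, with none at 0 in all libraries. The 2 CD8 genes summed to 54.5 and 93.4 in naïve and to 8.94 to 12.95 in effector cells. Most of this sum was Cd8b1, with a mean of 71.6 FPKM in naïve cells and at most 11.2 in an effector subset (Th17). The other CD8 gene averaged below 1 FPKM over the libraries and was not tested, so the sum describes mainly Cd8b1. The part of any such other cells in the class I values was not tested. In bulk RNA fewer cells that express a gene cannot be told apart from less RNA per cell.

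Naïve and Th1 cells held the higher levels of the class I genes, and Th2 and Th17 cells held lower levels of all 8. In Th2 cells 8 of 8 genes were lower than in naïve cells, where 38.7% of all tested genes were lower and 31.8% higher. In Th17 cells 8 of 8 were lower as well, where 29.8% of all tested genes were lower and 37.5% higher. In Th1 cells 3 of 8 were lower and 0 higher, against 33.5% lower and 33.8% higher among all genes tested, so the Th1 share was near the background. The median difference of the 8 genes from naïve cells on the log2(FPKM + 1) scale was -0.32 for Th1, -1.39 for Th2 and -1.35 for Th17, beside -0.01, -0.11 and 0.08 over all genes tested. Together the 8 genes took 1.07% and 1.34% of all FPKM in naïve, 0.969% and 1.13% in Th1 cells, 0.529% and 0.631% in Th2 cells and 0.458% and 0.565% in Th17 cells.

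**Figure D1:**
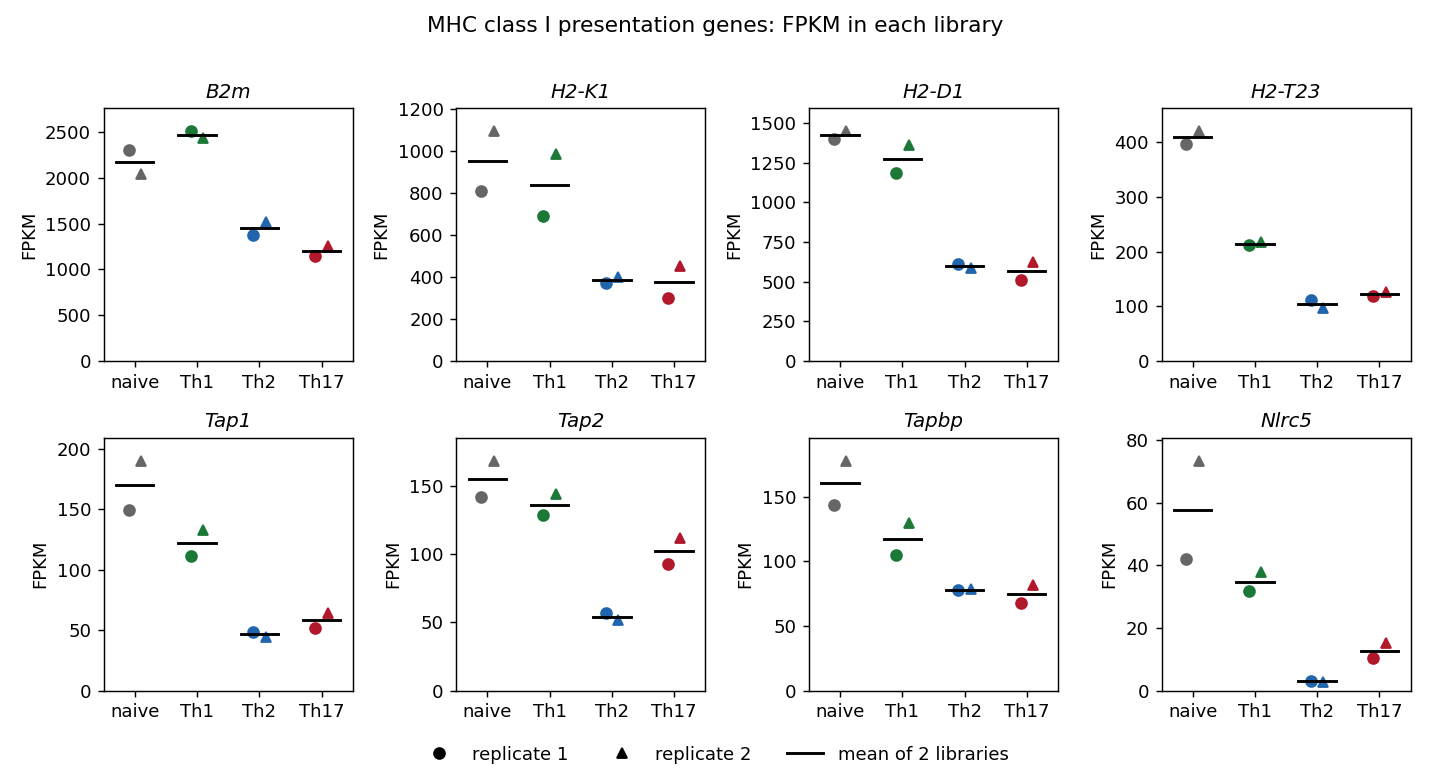
FPKM (linear axis from 0) of each of the 8 class I genes in each of the 8 libraries, with circles for replicate 1, triangles for replicate 2 and a bar for the mean of 2 libraries. For 8 of 8 genes both Th2 libraries and both Th17 libraries sit below both naïve libraries, as for 33.8% of all genes tested, whereas B2m was 2507 and 2431 in Th1 against 2305 and 2038 in naïve cells.

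The light chain, β2-microglobulin, pairs with classical and nonclassical heavy chains, and its gene was the most abundant of the 8 in every group. B2m was at 2305 and 2038 FPKM in naïve, 2507 and 2431 in Th1 cells, 1380 and 1521 in Th2 cells and 1146 and 1251 in Th17 cells. The Th1 libraries were the highest, above both naïve libraries, and the Th2 and Th17 libraries lay below both of these groups without overlap. The Th1 difference from naïve cells did not pass the test (log2 difference 0.19, 95% interval -0.14 to 0.51, limma adjusted p = 0.260). B2m fell by 0.58 ± 0.14 (SE) on the log2 scale in Th2 (limma adjusted p = 0.00723) and by 0.86 ± 0.14 in Th17 cells (limma adjusted p = 0.00122), and was 2.06 times as high in Th1 as in Th17 cells by mean FPKM (limma adjusted p = 0.00192). The decrease of B2m in Th2 cells was the smallest of the 8 genes. With all 23284 genes kept in the fit the Th2 and Th17 calls were lost (adjusted p = 0.156 and 0.0546), as was the Th2 call when only naïve and Th2 libraries were fitted (adjusted p = 0.0722).

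The heavy chains H2-K and H2-D are the classical molecules that present peptides to CD8 T cells. H2-K1 was at 812 and 1094 FPKM in naïve, 691 and 987 in Th1 cells, 373 and 401 in Th2 cells and 299 and 453 in Th17 cells. H2-D1 was at 1398 and 1448 in naïve, 1187 and 1364 in Th1 cells, 613 and 586 in Th2 cells and 508 and 624 in Th17 cells. Naïve and Th1 libraries overlapped for H2-K1 and lay apart for H2-D1, and every Th2 and Th17 library was below every naïve and Th1 library for both genes. H2-K1 was lower than in naïve cells by a factor of 2.46 in Th2 (mean 387 ± 20.2 against 953 ± 199 FPKM, SD, n = 2, limma adjusted p = 0.00397) and 2.53 in Th17 cells (limma adjusted p = 0.00326). H2-D1 was lower by a factor of 2.37 in Th2 (599 ± 18.8 against 1423 ± 35.2 FPKM, SD, n = 2, limma adjusted p = 0.000228) and 2.52 in Th17 cells (limma adjusted p = 0.000172). In Th1 cells the log2 differences from naïve were -0.19 (95% interval -0.82 to 0.44, limma adjusted p = 0.548) for H2-K1 and -0.16 (-0.51 to 0.18, limma adjusted p = 0.357) for H2-D1.

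The ratio of the 2 classical heavy chain genes did not separate the groups. H2-D1 over H2-K1 was 1.72 and 1.32 in naïve, 1.72 and 1.38 in Th1 cells, 1.64 and 1.46 in Th2 cells and 1.70 and 1.38 in Th17 cells. The group means were 1.52 to 1.55, and in each group the library numbered 1 had the higher ratio. The FPKM of B2m per FPKM of H2-K1 and H2-D1 together was 1.04 and 0.802 in naïve, 1.33 and 1.03 in Th1 cells, 1.40 and 1.54 in Th2 cells and 1.42 and 1.16 in Th17 cells. The Th2 and Th17 libraries were all above the naïve libraries, and Th1 overlapped with naïve. FPKM is scaled to transcript length but was not adjusted for reads lost at polymorphic sites, so this ratio is not a ratio of molecules.

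H2-T23 encodes the heavy chain of Qa-1, a nonclassical molecule that presents class I leader peptides to CD94/NKG2 receptors. It was at 397 and 419 FPKM in naïve, 211 and 217 in Th1 cells, 111 and 97.1 in Th2 cells and 119 and 126 in Th17 cells. The 4 groups did not overlap, and among the 3 heavy chain genes this was the one that was lower in Th1 than in naïve cells by the test. The difference from naïve was -0.93 ± 0.11 (SE) for Th1 (limma adjusted p = 0.000240), -1.96 ± 0.11 for Th2 (limma adjusted p = 5.11e-06) and -1.73 ± 0.11 for Th17 cells (limma adjusted p = 9.84e-06). The Th2 and Th17 levels, neighbours in the order, did not differ past the threshold (Th17 minus Th2 0.23, 95% interval -0.02 to 0.49, limma adjusted p = 0.116).

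TAP1 and TAP2 form the heterodimer that transports peptides. Tap1 was at 149 and 190 FPKM in naïve, 111 and 133 in Th1 cells, 48.9 and 44.4 in Th2 cells and 51.9 and 64.6 in Th17 cells. Tap2 was at 142 and 168 in naïve, 128 and 144 in Th1 cells, 56.8 and 51.7 in Th2 cells and 92.7 and 112 in Th17 cells. The lowest libraries of both genes were those of Th2, and for Tap2 the Th17 libraries stood between Th2 and Th1 without overlap. Relative to naïve cells Tap1 differed by -1.83 ± 0.17 (SE) in Th2 and -1.53 ± 0.17 in Th17 cells (limma adjusted p = 7.08e-05 and 0.000195). Tap2 differed by -1.49 ± 0.14 in Th2 and by -0.60 ± 0.14 in Th17 cells (limma adjusted p = 7.75e-05 and 0.00781). Tap2 was 1.89 times as high in Th17 as in Th2 cells (limma adjusted p = 0.00295), whereas for Tap1 the same comparison gave 0.31 on the log2 scale (95% interval -0.10 to 0.71, limma adjusted p = 0.184).

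The ratio of the transporter genes was not the same in the 4 groups. Tap1 over Tap2 was 1.05 and 1.13 in naïve, 0.868 and 0.926 in Th1 cells, 0.861 and 0.860 in Th2 cells and 0.560 and 0.578 in Th17 cells. The Th17 libraries were the lowest, the naïve libraries were the highest, and those of Th1 and Th2 lay between without touching either. Tap1 also shares its start region with Psmb9, whose FPKM per FPKM of Tap1 was 1.27 and 1.26 in naïve, 2.32 and 2.18 in Th1 cells, 1.82 and 1.74 in Th2 cells and 2.39 and 2.18 in Th17 cells. All effector libraries were above the naïve libraries in this ratio. These ratios were not tested. The antisense transcript across Tap2 was not a row of the tables, and its part in the Tap2 values was not tested.

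**Figure D2:**
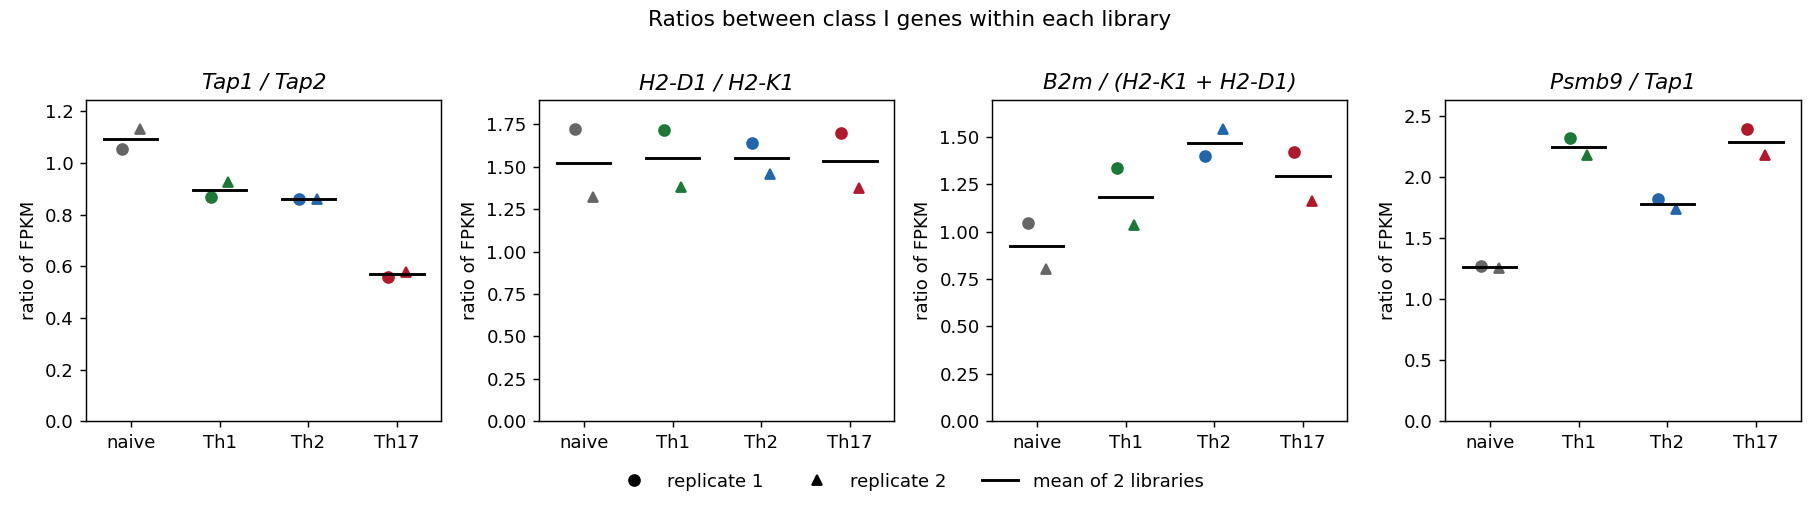
Ratios of FPKM within each library (linear axes from 0) for Tap1 over Tap2, H2-D1 over H2-K1, B2m over the sum of H2-K1 and H2-D1, and Psmb9 over Tap1, with circles for replicate 1, triangles for replicate 2 and bars for the mean of 2 libraries. Tap1 over Tap2 is 0.560 and 0.578 in Th17 and 1.05 and 1.13 in naïve cells, while H2-D1 over H2-K1 has means of 1.52 to 1.55 in all 4 groups.

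Tapasin, encoded by Tapbp, bridges the transporter and the heavy chain during peptide loading. Tapbp was at 144 and 178 FPKM in naïve, 105 and 130 in Th1 cells, 77.8 and 78.6 in Th2 cells and 67.8 and 82.1 in Th17 cells. Th1 lay between naïve and the other subsets without overlap, and Th2 and Th17 overlapped. It was lower than in naïve cells by a factor of 2.06 in Th2 (limma adjusted p = 0.00104) and 2.15 in Th17 cells (limma adjusted p = 0.000815).

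NLRC5 is the class I transactivator, and of the 8 genes its gene differed the most from naïve cells in Th2 and Th17, though not in Th1 cells. Nlrc5 was at 42.1 and 73.3 FPKM in naïve, 31.8 and 37.8 in Th1 cells, 3.19 and 2.73 in Th2 cells and 10.4 and 15.1 in Th17 cells. The 4 groups did not overlap, in the order naïve, Th1, Th17 and Th2, and the naïve libraries were the farthest apart. By mean FPKM Nlrc5 was 19.5 times lower in Th2 than in naïve cells (2.96 ± 0.332 against 57.7 ± 22.1, SD, n = 2) and 4.53 times lower in Th17 cells (12.7 ± 3.29). On the log2(FPKM + 1) scale, which understates the change of low values, the differences were -3.84 ± 0.27 (SE) and -2.06 ± 0.27 (limma adjusted p = 1.98e-05 and 0.000489). The Th1 difference from naïve was -0.67 (95% interval -1.32 to -0.01) with a limma adjusted p of 0.0666, and it passed the threshold without naïve replicate 1 (-1.06, adjusted p = 0.00941). The gene span in the tables begins at 94472763, whereas the RefSeq gene begins at 94434335, and the part upstream of the first lies outside the measured span.

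**Figure D3:**
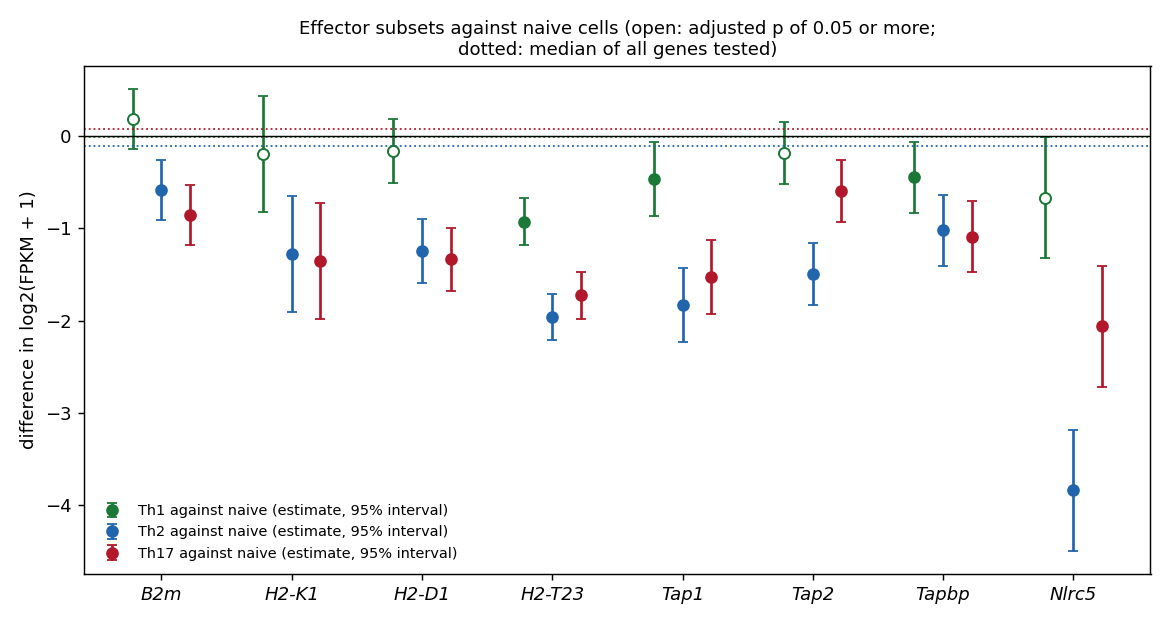
Difference of each effector subset from naïve cells in log2(FPKM + 1) for the 8 class I genes, with points for the limma estimates, bars for 95% intervals, open points for an adjusted p of 0.05 or more, and dotted lines for the median of the 11198 genes tested. All Th2 and Th17 estimates are below 0, from -0.58 for B2m to -3.84 for Nlrc5 in Th2, and 3 of the 8 Th1 estimates pass the threshold.

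The Th1 decreases from naïve cells other than that of H2-T23 were at most 1.39-fold among the genes called. Tap1 was 1.39 times lower (log2 difference -0.47 ± 0.17, SE, limma adjusted p = 0.0444) and Tapbp 1.37 times lower (-0.45 ± 0.16, limma adjusted p = 0.0419). Both calls were lost without naïve replicate 2, Th1 replicate 1, Th2 replicate 1 or Th2 replicate 2, and that of Tap1 also without Th1 replicate 2, with adjusted p between 0.0508 and 0.217, leaving 1 of the 8 genes called in each of the first 4 cases. Both were lost as well with no filter on low values and with naïve and Th1 libraries fitted alone. Tap2 did not pass (-0.18, 95% interval -0.52 to 0.15, limma adjusted p = 0.284), but with quantile normalization Tap2 (-0.52, adjusted p = 0.00876) and Nlrc5 (-0.79, adjusted p = 0.0387) did.

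Among the effector subsets, the class I genes were highest in Th1 cells. Against Th2 cells 8 of 8 were higher in Th1, where 27.4% of all tested genes were higher and 16.9% lower, and against Th17 cells 7 of 8 were higher, where 9.17% of all tested genes were higher and 16.0% lower. The median differences of the 8 genes were 1.09 and 1.05 on the log2 scale, beside 0.11 and -0.08 over all genes tested. Both Th1 libraries were above both Th2 libraries for 8 of 8 genes and 45.2% of all genes tested, and above both Th17 libraries for 8 of 8 and 22.9%. Nlrc5 was 11.8 times as high in Th1 as in Th2 (limma adjusted p = 0.000171) and 2.73 times as high as in Th17 cells (limma adjusted p = 0.0110). For Tap1 the factors were 2.62 and 2.10, for H2-D1 2.13 and 2.26, and for H2-K1 2.17 and 2.23. Of the genes called, Tapbp differed the least, by factors of 1.50 and 1.57 (limma adjusted p = 0.0260 and 0.0275). The Tap2 difference between Th1 and Th17 cells did not pass (0.41, 95% interval 0.08 to 0.75, limma adjusted p = 0.0763) but did with median scaling (0.50, adjusted p = 0.0281), whereas Tap2 was 2.51 times as high in Th1 as in Th2 cells (limma adjusted p = 0.000467).

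With no filter on low values 5 and 3 genes were called for Th1 against Th2 and against Th17. Some of the calls among effector subsets were also lost when a single library was left out. For H2-K1 and Tapbp the Th1 against Th2 call was lost without Th1 replicate 2, Th2 replicate 1 or Th2 replicate 2, with log2 differences of 0.84 to 1.15 and 0.42 to 0.58. That of Tapbp was lost with quantile normalization too (0.38, adjusted p = 0.0670). For H2-K1, Tapbp and Nlrc5 the Th1 against Th17 call was lost without Th1 replicate 2 or Th17 replicate 1, which left 4 of 8 genes called, with Nlrc5 at 1.28 and 1.15 (adjusted p = 0.0724 and 0.0732). That of Tapbp was lost also without Th17 replicate 2, Th2 replicate 1 or Th2 replicate 2.

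Th17 and Th2 cells differed in 2 of the 8 genes. Nlrc5 was 4.30 times as high in Th17 as in Th2 cells (log2 difference 1.78 ± 0.27, SE, limma adjusted p = 0.00280) and Tap2 was higher as given above, and 0 were lower, where 31.7% of all tested genes were higher and 12.0% lower. The higher share was thus close to the background. The classical heavy chain and light chain genes, in contrast to Nlrc5, did not pass the test, with log2 differences of -0.07 for H2-K1 (95% interval -0.70 to 0.56), -0.09 for H2-D1 (-0.43 to 0.25) and -0.27 for B2m (-0.60 to 0.05). The median of the 8 genes was 0.08, and that of all genes tested was 0.18. Over all genes, 72.6% of the calls were higher in Th17, a share that became 50.7% with quantile normalization and 53.3% with median scaling, where B2m was lower in Th17 (-0.46, adjusted p = 0.0342). For Th1 against Th2 this share moved from 61.8% to 50.9%, for Th1 against Th17 from 36.5% to 49.7%, and for Th17 against naïve from 55.7% to 44.2% with quantile normalization. No difference of the 8 genes changed sign under either scaling.

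The other genes of the pathway were described from lists. Among all genes tested, 33.8%, 31.8% and 37.5% were higher and 33.5%, 38.7% and 29.8% lower in Th1, Th2 and Th17 than in naïve cells. Between Th1 and Th2, 27.4% were higher in Th1 and 16.9% lower. Of 21 further class I heavy chain genes, 19 were in the tables and 18 were tested. None was higher than in naïve cells in any subset, while 6 were lower in Th1 and 14 in each of Th2 and Th17 cells, with medians of -0.33, -1.37 and -1.38. H2-T24 fell the most in Th2 (from 37.0 and 70.6 to 1.97 and 1.06 FPKM, log2 difference -4.40 ± 0.30, SE), followed by H2-T10 (-2.56 ± 0.20), H2-T9 (-2.55 ± 0.23) and H2-Q4 (-1.92 ± 0.15). Between Th1 and Th2 cells 14 were higher in Th1 and 0 lower, with H2-T24, H2-T9, H2-T10 and H2-Q4 again the 4 with the largest differences (2.35, 1.72, 1.68 and 1.28). H2-T10 shares 50.4% of its 50-base words with other genes and H2-Q4 36.4%, so values of single genes are uncertain. Summed over all class I heavy chain genes, the FPKM was 4493 and 5325 in naïve, 3642 and 4385 in Th1 cells, 1934 and 1934 in Th2 cells and 1622 and 2072 in Th17 cells. Each gene enters this sum by its own length, so the sum still depends on how shared reads were split. The difference from naïve in the mean log2 of the sum was -0.29 for Th1, -1.34 for Th2 and -1.42 for Th17 cells.

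The genes that supply peptides followed the 8 genes in part. Of 5 genes of the immunoproteasome and its PA28 activator, 5 were lower in Th2 than in naïve cells, 4 were lower in Th17, and in Th1 cells 1 was higher (Psmb8, 0.36 ± 0.13, SE) and 1 lower (Psmb10, -1.11 ± 0.14). Psmb9 was at 190 and 239 FPKM in naïve, 258 and 290 in Th1 cells, 89.0 and 77.4 in Th2 cells and 124 and 141 in Th17 cells. Psmb10 was at 98.2 and 108 in naïve, 42.6 and 52.0 in Th1 cells, 18.1 and 16.4 in Th2 cells and 29.9 and 35.9 in Th17 cells. Psmb9 was thus highest in Th1 cells and Psmb10 highest in naïve cells, and Th2 was lowest for both. The Psmb9 difference of Th1 from naïve cells did not pass the threshold (0.36, limma adjusted p = 0.0700). Psmb8, Psmb9 and Psmb10 were each higher in Th17 than in Th2 cells (0.64, 0.67 and 0.89 on the log2 scale). Of 4 constitutive counterparts, 2 were higher in Th1, 1 was higher and 1 lower in Th2, and 3 were higher in Th17 than in naïve cells. Among all genes tested, 33.8%, 31.8% and 37.5% were higher and 33.5%, 38.7% and 29.8% lower in Th1, Th2 and Th17. Psmb7, the subunit that Psmb10 replaces, rose by 0.61 in Th1 cells, by 0.48 in Th2 cells and by 0.69 in Th17 cells on the log2 scale, and Psme3 fell by 0.31 in Th2 cells. Of 6 cytosolic peptidases, 5 were higher in Th1, 5 in Th2 and 4 in Th17 than in naïve cells and 0 lower, with Thop1, which degrades peptides, at 1.43, 0.94 and 1.96.

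Of 9 genes of peptide loading and trimming in the endoplasmic reticulum, 4, 3 and 4 were higher and 1, 2 and 2 lower in Th1, Th2 and Th17 than in naïve cells, beside 33.8%, 31.8% and 37.5% higher and 33.5%, 38.7% and 29.8% lower among all genes tested. Canx, the lectin chaperone calnexin, was at 43.6 and 42.8 FPKM in naïve and between 96.4 and 136 in all effector libraries, and was higher in each subset (by 1.20 to 1.57 on the log2 scale). Calr, which encodes calreticulin of the loading complex, rose the most in Th2 cells (1.14 ± 0.11, SE). Tapbpl, the tapasin-related editor of peptides, fell in all of them, by 1.44, 1.61 and 1.62 on the log2 scale. Erap1, the aminopeptidase that trims peptides to class I length, fell by 0.96 in Th2 and 0.71 in Th17 cells.

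**Figure D4:**
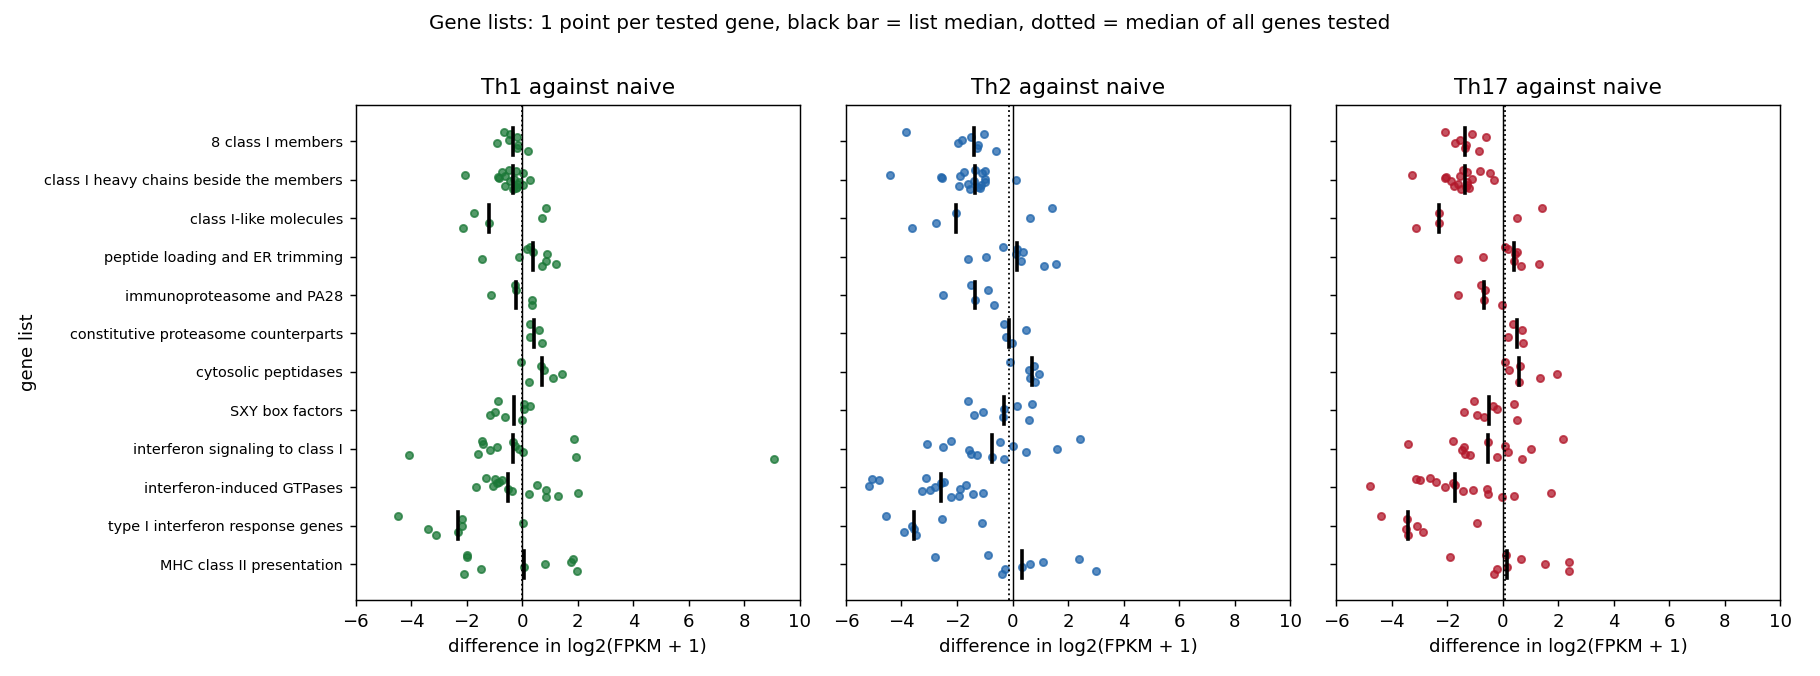
Difference from naïve cells in log2(FPKM + 1) for each tested gene of the 8 class I genes and of 11 related lists, 1 panel per effector subset, with black bars for list medians and dotted lines for the median of all genes tested. The other heavy chains have medians of -0.33, -1.37 and -1.38 and the interferon-induced GTPases of -0.51, -2.58 and -1.72 in Th1, Th2 and Th17, while cytosolic peptidases lie mostly above 0.

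Genes upstream of class I differed as well. Ifng, the cytokine, was at 802 and 614 FPKM in the Th1 libraries, 0.218 and 0.437 in the naïve libraries and at most 2.19 in any other library. Exposure of the cells to interferon and its part in the class I levels were not tested. Irf1, a transcription factor of the interferon response, was at 208 and 233 in naïve, 75.9 and 88.8 in Th1 cells, 25.1 and 25.5 in Th2 cells and 18.9 and 20.7 in Th17 cells. Nlrc5 was lowest in Th2 cells, whereas Irf1 was lowest in Th17 cells (Th17 minus Th2 -0.34, limma adjusted p = 0.0474). Of 13 genes of interferon signaling, 3, 3 and 2 were higher and 7, 8 and 7 lower than in naïve cells in Th1, Th2 and Th17. Among all genes tested, 33.8%, 31.8% and 37.5% were higher and 33.5%, 38.7% and 29.8% lower. The receptor chains went in opposite directions in Th1 cells, where Ifngr1 rose by 1.92 and Ifngr2 fell by 4.10 on the log2 scale, from 41.2 and 37.8 to 1.55 and 1.19 FPKM.

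The genes for interferon-induced GTPases were also lowest in Th2 cells for the most part. Of 15 interferon-induced GTPases, which act in defence against intracellular microbes, 15 were lower in Th2 than in naïve cells. All 15 were higher in Th1 than in Th2, where 27.4% of all tested genes were higher and 16.9% lower. Tgtp1 (4.11), Iigp1 (4.11), Tgtp2 (4.10) and Gbp7 (3.80) were the 4 with the largest log2 differences between Th1 and Th2. Against naïve cells 5 were higher and 8 lower in Th1, and 1 was higher and 12 lower in Th17. Between Th17 and Th2 cells 11 were higher in Th17 and 0 lower, where 31.7% of all tested genes were higher and 12.0% lower. The largest of these differences were those of Gbp5 (2.81), Gbp3 (2.35) and Gbp2 (2.18). Of 7 tested genes of the type I interferon response, 6 were lower in Th1 and 7 in each of Th2 and Th17 than in naïve cells. Rtp4 was at 20.1 and 30.9 FPKM in naïve and at most 0.340 in effector libraries. Between Th17 and Th2 cells 1 of the 7 was higher in Th17 (Ifit2, 1.02) and 1 lower (Usp18, -0.90), and 5 were not called. Of the 8 genes for factors of the SXY module, 4 were lower in Th1 cells, 4 in Th2 cells and 5 in Th17 cells, and 1, 2 and 2 were higher. Among all genes tested, 33.5%, 38.7% and 29.8% were lower and 33.8%, 31.8% and 37.5% higher in Th1, Th2 and Th17 than in naïve cells. Creb1, Nfyc and Rfxank were among the 4 largest called differences in each subset, between -0.86 and -1.59, whereas Nfyb was higher in Th2 (0.71).

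**Figure D5:**
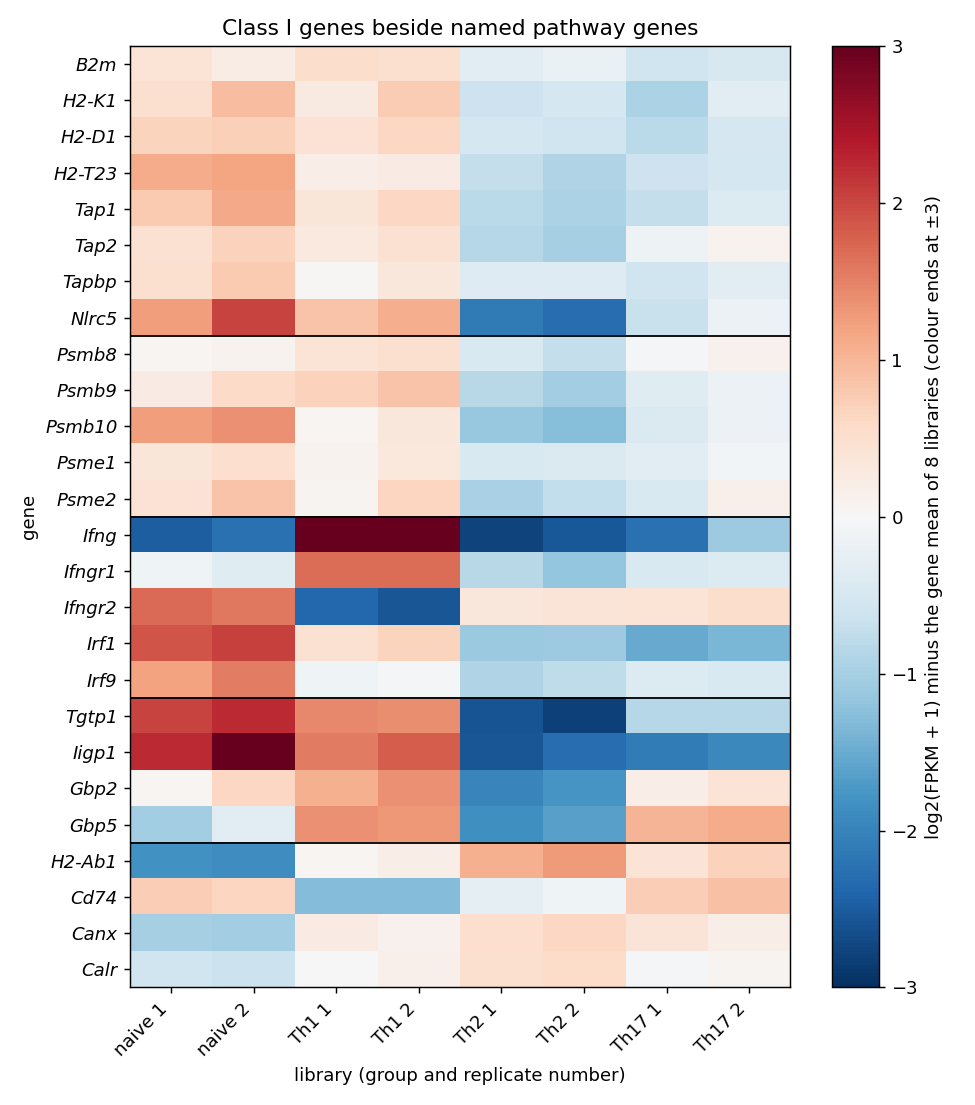
Level of class I and related genes in each library as log2(FPKM + 1) minus the mean of that gene over the 8 libraries, in blocks of the 8 class I genes, the immunoproteasome and PA28 genes, interferon signaling, interferon-induced GTPases, and class II and chaperone genes (red above and blue below the mean, colour ending at ±3). The class I block is red in the 4 naïve and Th1 libraries and mostly blue in the Th2 and Th17 libraries, and Ifng is red in the 2 Th1 libraries alone.

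The genes whose profile over the 8 libraries was nearest to that of each class I gene were found by the root mean square difference between centred log2(FPKM + 1) values, a description over libraries of 4 groups. Nearest to Nlrc5 were Zbp1 (0.13), Gbp10 (0.25) and Gbp6 (0.30). H2-K1 was nearest to H2-Q2 (0.05), Gm8909 (0.08) and H2-K2 (0.09), with H2-D1 in place 5, and heavy chain genes share sequence. H2-D1 was nearest to Ppp3ca (0.04), H2-Q1 (0.08) and H2-Q6 (0.10), and Tap1 to H2-Q4 (0.10), Antxr2 (0.13) and Sh2d3c (0.13), with H2-T23 in place 12. For Tap2, B2m, H2-T23 and Tapbp the 3 nearest genes held no class I gene, and the nearest were Zfp287 (0.11), Dennd1b (0.09), Slc25a45 (0.08) and Prex1 (0.06). The nearest of the other 7 genes to Tap2 was Tap1 in place 491, and the nearest to B2m was H2-D1 in place 81.

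The replicates differed in a direction that the class I genes shared. Within groups, 7 of 8 genes were higher in replicate 2 in naïve, 7 of 8 in Th1, 3 of 8 in Th2 and 8 of 8 in Th17 cells. The median log2 difference of replicate 2 from replicate 1 was 0.27, 0.22, -0.10 and 0.28, beside 0.00, 0.05, -0.01 and 0.06 over all genes tested. The shift within naïve, Th1 and Th17 was thus larger for these genes than for all genes, and every Th2 and Th17 library was still below every naïve and Th1 library for 8 of 8 genes, a separation shown by 7.36% of all genes tested.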

How the data were processed

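RNA was sequenced in 2 libraries of each of 4 groups (naïve CD4 T cells and effector Th1, Th2 and Th17 cells), grouped by the sample labels. Reads were aligned by the authors to mm10 with Bowtie (0.12.8) and TopHat (1.3.2), and FPKM per gene was computed with Cufflinks (2.0.2), per the labels. The deposited tables give FPKM per gene with its confidence bounds for each library, and no read counts. The annotation used is not given in the sources used here. The labels name a stranded kit and the methods an unstranded one. Implied fragments were derived from the width of the deposited confidence bounds and cover counting error only.

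Rows sharing a symbol were summed (23284 genes). Values were tested as log2(FPKM + 1) for the 11198 genes whose FPKM averaged 1 or more, with limma (3.58.1, R 4.3.3; 4 group means in one model, mean-variance trend, two-sided, Benjamini-Hochberg over all genes tested, threshold 0.05). The fit was tested on simulated data. Tables and figures used Python 3.11.15, pandas 2.3.3, numpy 2.4.6 and matplotlib 3.10.9. From each list up to 4 genes with the largest called difference were named, and Ifng, Irf1, Psmb8, Psmb9 and Psmb10 always. A further gene under this rule is not reported here. Genes and lists were chosen with earlier results of these data known. Alternatives were a pseudocount of 0.1, no filter, a filter at FPKM 5, median scaling, quantile normalization, fits of 2 groups alone, a fit without the trend, the highest row per symbol, genes with status OK in every library only, a replicate block and leaving out each library.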

Additional observations from a re-analysis of the deposited data

Results flagged for a closer look

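Each of the 8 class I genes differed between effector subsets in its change from naïve cells, since the naïve term cancels in a comparison of 2 subsets. These are the comparisons already given, tested with limma in all 3 pairs of subsets. Each gene is listed with the pair that gave its largest called difference. The Th1 change exceeded the Th17 change by 1.04 on the log2 scale for B2m, 1.16 for H2-K1, 1.18 for H2-D1 and 0.64 for Tapbp. The Th1 change exceeded the Th2 change by 1.04 for H2-T23, 1.37 for Tap1, 1.31 for Tap2 and 3.17 for Nlrc5. Both Th1 libraries were above both libraries of the other subset for each gene, a separation shown by 22.9% of all tested genes against Th17 and 45.2% against Th2. With no filter on low values the listed calls of B2m, H2-K1 and Tapbp were lost (limma adjusted p = 0.0649, 0.0789 and 0.0789). With Th1 and Th17 libraries fitted alone those of H2-K1 and Tapbp were lost (limma adjusted p = 0.0582 and 0.0587). For H2-K1 the call was lost without Th1 replicate 2 or Th17 replicate 1 (adjusted p = 0.114 and 0.108). For Tapbp it was lost without Th1 replicate 2, either Th17 library or either Th2 library (adjusted p = 0.0508 to 0.147).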

How the results depend on the processing

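The 8 genes lower in Th2 and in Th17 than in naïve cells stayed at 8 when any one library was left out (8 to 8 for both), and the 2 higher in Th17 than in Th2 stayed at 2. Leaving out one library gave 1 to 4 genes for Th1 against naïve, 6 to 8 for Th1 against Th2 and 4 to 7 for Th1 against Th17. With no filter on low values 1, 5 and 3 genes were called in these 3 comparisons. For Th1 against naïve the count was 1 with only the 2 groups fitted and 5 with quantile normalization. Over 864 single-gene values, 811 kept direction and call, 41 lost the call, 7 gained it and 5 changed sign. The changes of sign came from leaving out a library, and none of these values was called. For H2-K1 in Th1 against naïve the values ranged from -0.4471 (without Th1 replicate 2) to 0.06622 (without Th1 replicate 1), with 0.0244 without naïve replicate 2. In Th17 against Th2 they ranged from -0.3706 to 0.2283 for H2-K1, -0.2382 to 0.05743 for H2-D1 and -0.2035 to 0.06862 for Tapbp, the low ends without Th17 replicate 2 and the high ends without Th17 replicate 1. The causes were not tested.

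Replicate differences of the groups correlated at 0.138 to 0.294, and the labels do not say that a shared number marks a shared source. With the replicate block, 4 genes were called for Th1 against naïve (Nlrc5 added, adjusted p = 0.0292), 8 for Th1 against Th17 (Tap2 added, adjusted p = 0.0381), and 8, 8, 8 and 2 in the other comparisons.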

Other observations

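Genes of MHC class II presentation, which uses RFX, CREB and NF-Y factors as class I does, were changed in both directions. The list had 9 tested genes, and against naïve cells 4 rose and 4 fell in Th1 cells, 4 rose and 3 fell in Th2 cells, and 4 rose and 1 fell in Th17 cells. Among all genes tested, 33.8%, 31.8% and 37.5% were higher and 33.5%, 38.7% and 29.8% lower in Th1, Th2 and Th17. H2-Ab1, a class II β chain, was at 11.5 and 11.2 FPKM in naïve, 45.1 and 49.8 in Th1 cells, 91.9 and 106 in Th2 cells and 58.3 and 70.4 in Th17 cells, and was highest in the subset where Nlrc5 was lowest. H2-Aa, its α chain partner, was at 19.6 and 17.3 in naïve and 3.05 and 4.03 in Th1 cells, so that in Th1 the chains of one molecule went in opposite directions. In Th2 and Th17 cells H2-Aa averaged 14.1 and 14.8 FPKM, and neither difference from naïve was called (limma adjusted p = 0.0506 and 0.102). The effect of the H-2d against H-2b difference on the class II values was not tested. Cd74, the invariant chain, was at 44.8 and 42.2 in naïve, 10.2 and 10.2 in Th1 cells, 21.6 and 24.3 in Th2 cells and 45.3 and 49.4 in Th17 cells. B cell and macrophage marker sums were lowest in Th1 cells as well, and their part in the class II values was not tested.

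Of 5 class I-like genes, 3 were lower and 2 higher than in naïve cells in each of the 3 subsets. Among all genes tested, 33.5%, 38.7% and 29.8% were lower and 33.8%, 31.8% and 37.5% higher in Th1, Th2 and Th17. Cd1d1, which encodes the lipid-presenting molecule CD1d, was at 26.1 and 19.7 FPKM in naïve, 4.43 and 4.45 in Th1 cells, 1.12 and 0.790 in Th2 cells and 1.84 and 1.64 in Th17 cells. Fcgrt, the heavy chain of the neonatal Fc receptor, fell by 1.74, 2.02 and 2.29 on the log2 scale in Th1, Th2 and Th17 cells, whereas Hfe, a regulator of iron uptake, rose by 0.85, 1.42 and 1.42.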
